A study of Gallus gallus with 10 samples.

Results

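Genes of glycolysis and of the response to low oxygen were followed in cranial neural folds of chick embryos after NSD3 knockdown. The 35 genes were chosen by name to cover glucose and lactate transport, the steps of glycolysis, pyruvate dehydrogenase with its kinases and the hypoxia pathway. Of these, 31 had a row among the 19168 genes of the deposited expression table, 29 by the Ensembl symbol and 2 by a protein database symbol, and each had a single row. SLC2A3, PGK1, PKM and PDHA1 had no row under their own symbol. A filter was set at a mean of 1 FPKM, that is fragments per kilobase of a transcript after scaling for the size of the library. It kept 30 members for testing gene by gene and left out PFKFB4, which entered only a ratio to PFKFB3.

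Of the study's 2 groups, the first received an NSD3 morpholino and the second a control morpholino, named mmMO in the labels, at 0.5 mM in each case. NSD3 is a methyltransferase for histones with a SET domain. A morpholino is an antisense oligomer that blocks splicing or translation, and the labels do not say which. Electroporation of each embryo was bilateral, at Hamburger-Hamilton stage 4 to 5, and 300 ng/µL of pCS2+myc carrier DNA went in with the morpholino, so the plasmid was shared by all pools. Folds were collected at 5 to 7 somites from 60 embryos per group, and each of the 5 libraries per group was a pool of 12 embryos. Neural folds hold premigratory neural crest, neural tube and ectoderm together, and in such bulk tissue fewer cells of a type and less RNA per cell cannot be told apart.

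Glycolysis splits glucose into pyruvate and yields ATP without oxygen. Phosphofructokinase sets its pace, and lactate dehydrogenase turns pyruvate into lactate, which leaves the cell through monocarboxylate transporters. Under low oxygen the factor HIF1A escapes the prolyl hydroxylases that mark it for breakdown and raises transcription of glucose transporters, glycolytic enzymes, VEGFA and the mitophagy receptors BNIP3 and BNIP3L. Glycolytic activity is high in the early chick embryo and has been linked to the delamination of cranial neural crest.

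Polyadenylated RNA was sequenced. Relative depth, as read from the FPKM steps of low genes, was 1.295 in NSD3 morpholino pool 1. The other libraries were similar in depth, between 0.887 and 1.055. In each library 16238 to 16638 genes lay above 0, the most in NSD3 morpholino pool 1. NSD3 stood at 17.3, 15.9, 18.4, 19.5 and 18.4 FPKM in the NSD3 morpholino pools, against 20.8, 21.5, 21.3, 24.7 and 25.9 FPKM in the control pools. The groups did not overlap, with an exact two-sided permutation p of 0.007937, the smallest that 252 arrangements allow, while the limma adjusted p over all genes was 0.055. The authors' deposited table lists NSD3 as lower, at -0.354 on the log2 scale (adjusted p 0.00439). A block of translation need not lower this RNA. The crest, border and neural markers set out for the labelled tissue were all at a mean of at least 1 FPKM, and the endoderm markers were all below it. Control pools 4 and 5 stood apart from the other 8 pools in many members, so the fit was also made without them. That choice rests on the members' own values, so changes seen in that setting describe the pools and are no separate support. With all pools 301 of 11935 genes were called by limma, a linear model across genes with a shared estimate of spread, at an adjusted p under 0.05.

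Glycolytic mRNAs were among the most abundant of the tissue. GAPDH, which oxidises glyceraldehyde phosphate, ranked 12 among all genes by mean FPKM and made up 0.785% to 0.954% of the FPKM total in NSD3 morpholino pools and 0.786% to 1.12% in control pools. ENO1, the main enolase, ranked 30, PGAM1, a phosphoglycerate mutase, ranked 55 and ALDOC, an aldolase, ranked 66. LDHB, TPI1 and SLC16A1 ranked 78, 90 and 172. In all, 2 members had a mean of at least 1000 FPKM, 9 of at least 100 FPKM and 24 of at least 10 FPKM. The lowest were mainly regulators and minor isoforms. PFKFB2, PFKFB3, TIGAR, EGLN3, PFKM, ENO2 and VEGFA each averaged under 10 FPKM in the NSD3 morpholino pools, and PFKFB4 averaged 0.729 ± 0.299 FPKM there and 0.889 ± 0.375 FPKM in control pools (SD, n = 5 each).

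**Figure D1:**
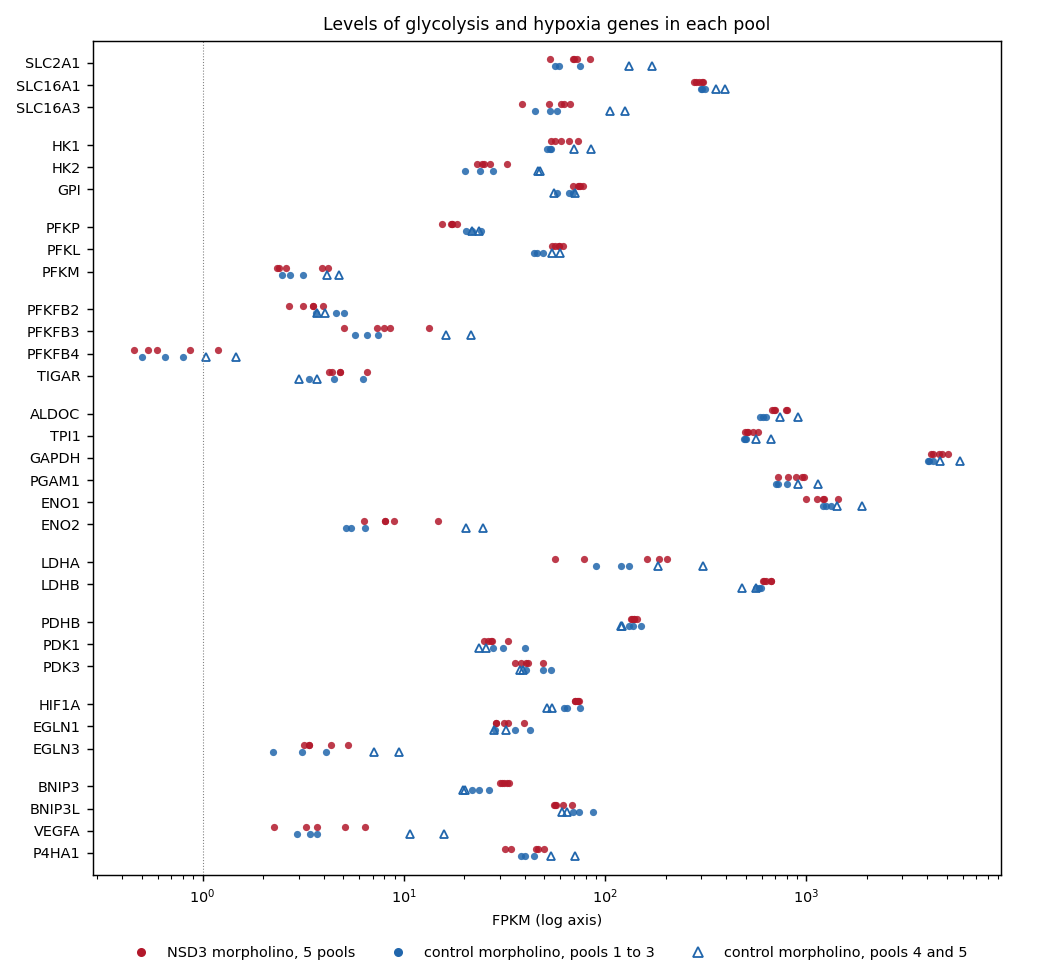
FPKM on a log axis for the 31 members with a row, grouped by role, with 1 symbol per pool. NSD3 morpholino pools are red circles above, control pools 1 to 3 blue circles and control pools 4 and 5 open triangles, and the dotted line marks the filter at 1 FPKM, below which PFKFB4 averaged in each group.

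Between the groups 2 members passed the threshold, in opposite directions. BNIP3 (ENSGALG00000010476), a mitochondrial outer membrane receptor for mitophagy that HIF1A induces, rose 1.41-fold. PFKP (ENSGALG00000006939), the platelet type of phosphofructokinase, fell to 0.766 of its control level. The other 28 tested members did not pass, and the median log2 fold change of the 30 was -0.12, against -0.003 for all genes tested. The 1 rise and 1 fall among 30 stand beside 1.5% of all genes called higher and 1.02% called lower, 2.52% in either direction. At an unadjusted p under 0.05, 5 members were higher and 4 lower, against 18.1% of all genes. The authors' deposited table of 674 genes holds BNIP3 and PFKP and no other member.

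BNIP3 stood at 33.2, 30.2, 32.7, 31.5 and 30.7 FPKM in the NSD3 morpholino pools, against 26.4, 21.7, 23.7, 19.8 and 20.2 FPKM in the control pools. Every NSD3 morpholino pool lay above every control pool, and control pools 4 and 5 were the lowest. The means were 31.7 ± 1.29 FPKM in NSD3 morpholino pools and 22.4 ± 2.75 FPKM in control pools (SD, n = 5 each), which gave a log2 fold change of 0.50 (SE 0.0828, limma adjusted p 0.00997). Without control pools 4 and 5 it was 0.40 (SE 0.0747, limma adjusted p 0.0227). In the authors' deposited table BNIP3 had a log2 fold change of 0.501, an adjusted p of 3.68e-05 and a mean count of 440.9.

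BNIP3L, also called NIX, the paralog of BNIP3 with the same role in mitophagy, did not follow it. It stood at 68.8, 56.0, 56.8, 61.9 and 56.3 FPKM in the NSD3 morpholino pools and at 74.1, 69.2, 86.8, 61.1 and 64.4 FPKM in the control pools, and the groups overlapped. The fitted log2 fold change of -0.24 (SE 0.0964, limma adjusted p 0.219) missed the threshold. BNIP3 made up 34.6% ± 1.51 of the summed FPKM of the pair in NSD3 morpholino pools and 24.0% ± 1.72 in control pools (SD, n = 5 each), while the sum itself averaged 91.6 ± 6.48 FPKM in NSD3 morpholino pools and 93.5 ± 12.1 FPKM in control pools. The mean log2 ratio of BNIP3 to BNIP3L was higher by 0.74 in the NSD3 morpholino pools (two-sided exact permutation, p 0.007937, and 0.0437 after Benjamini-Hochberg adjustment over 11 ratios compared). Without control pools 4 and 5 the difference was 0.75 and the adjusted exact p 0.0655, where 56 arrangements allow an unadjusted p no smaller than 0.0179.

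PFKP catalyses the committed step of glycolysis. It stood at 18.4, 15.4, 17.2, 17.3 and 17.4 FPKM in the NSD3 morpholino pools, against 21.7, 20.4, 24.2, 21.8 and 23.7 FPKM in the control pools, and the groups did not overlap. The means were 17.1 ± 1.08 FPKM with the NSD3 morpholino and 22.4 ± 1.55 FPKM in controls (SD, n = 5 each), which gave a log2 fold change of -0.37 (SE 0.0725, limma adjusted p 0.0207). Control pools 4 and 5 lay inside the range of the other control pools, and without them it was -0.36 (limma adjusted p 0.045). The call ended without NSD3 morpholino replicate 2, 3, 4 or 5, each left out in turn, at limma adjusted p of 0.0636, 0.0521, 0.059 and 0.0531. A term for replicate number in the fit also ended the call, at a limma adjusted p of 0.0512. In the authors' deposited table PFKP had a log2 fold change of -0.383, an adjusted p of 0.000154 and a mean count of 818.8.

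PFKL, the liver type, was the most abundant of the 3 phosphofructokinase genes. It stood at 56.4, 58.9, 59.3, 54.3 and 62.1 FPKM in the NSD3 morpholino pools, against 49.1, 46.0, 44.1, 54.4 and 59.6 FPKM in the control pools. Control pools 1 to 3 lay below all NSD3 morpholino pools and control pools 4 and 5 among them. The log2 fold change was 0.21 (95% interval 0.02 to 0.39, limma adjusted p 0.217). Without control pools 4 and 5, PFKL was called higher, at 0.32 on the log2 scale (SE 0.0634, limma adjusted p 0.0273). PFKM, the muscle type, had 2.33 to 4.20 FPKM in NSD3 morpholino pools and 2.49 to 4.76 FPKM in control pools (limma adjusted p 0.764).

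The make-up of phosphofructokinase mRNA differed between the groups. PFKL made up 74.2% ± 1.43 and PFKP 21.9% ± 1.67 of the summed FPKM of the 3 genes in NSD3 morpholino pools, against 66.1% ± 2.26 and 29.4% ± 2.94 in control pools (SD, n = 5 each). The sum averaged 78.4 ± 3.66 FPKM in NSD3 morpholino pools and 76.5 ± 7.60 FPKM in control pools. The mean log2 ratio of PFKP to PFKL differed by -0.58 (two-sided exact permutation, p 0.007937, and 0.0437 adjusted over the 11 ratios). Without control pools 4 and 5 that difference was -0.68, with an adjusted exact p of 0.0655. Of the 11 ratios, those of PFKP to PFKL and of BNIP3 to BNIP3L passed with all pools. The other 9 did not, with adjusted exact p between 0.349 and 0.873. The ratio of ENO2 to ENO1 differed by 0.078 with all pools. Without control pools 4 and 5 it differed by 0.69, also with an adjusted exact p of 0.0655. Each passing ratio had an exact p of 0.007937, the smallest that 252 arrangements allow. A lone ratio at that p would not have passed the adjustment over 11 ratios. The ratios rest on the same values as the tests of the single genes.

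**Figure D2:**
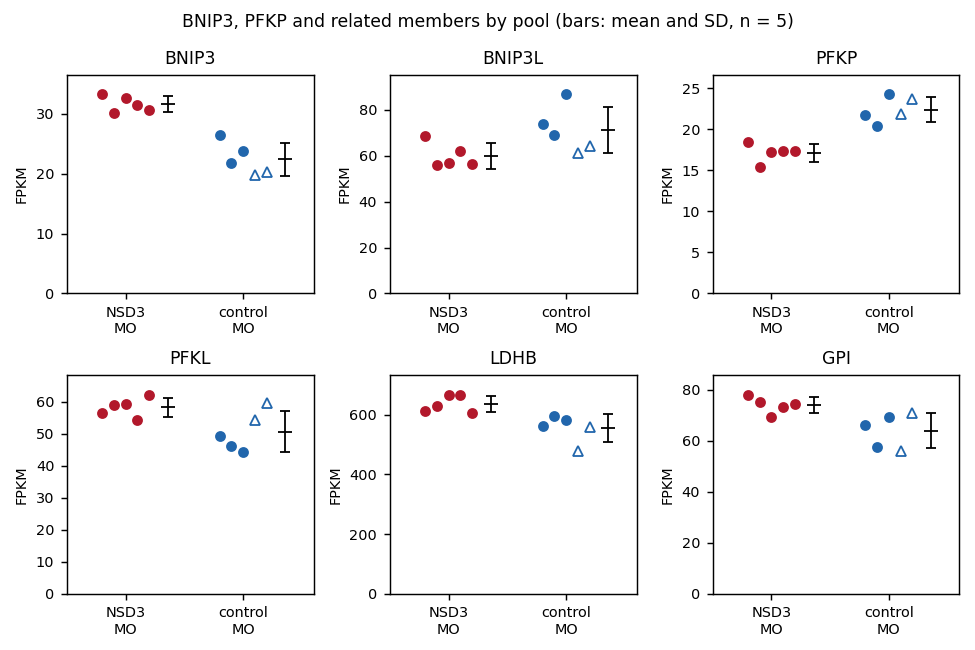
FPKM of BNIP3, BNIP3L, PFKP, PFKL, LDHB and GPI by pool on axes from 0, NSD3 morpholino (red) left of control (blue), replicates 1 to 5 from left to right, with control pools 4 and 5 as open triangles. Black bars give the mean and SD (n = 5), and the groups do not overlap for BNIP3, PFKP and LDHB.

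LDHB was the other member whose groups did not overlap. The LDHB subunit of lactate dehydrogenase favours the conversion of lactate to pyruvate and LDHA the reverse. LDHB stood at 613, 629, 665, 668 and 607 FPKM in the NSD3 morpholino pools, against 564, 595, 584, 478 and 561 FPKM in the control pools. The log2 fold change was 0.20 (95% interval 0.05 to 0.34), and the limma adjusted p of 0.138 missed the threshold. In all, 2 of 30 members were higher without overlap and 1 was lower, against 3.68% and 2.36% of all genes tested, 6.04% in either direction.

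LDHA varied more than any other member among the NSD3 morpholino pools. It stood at 204, 186, 78.4, 56.6 and 161 FPKM there, and at 120, 90.4, 131, 183 and 307 FPKM in the control pools. NSD3 morpholino pools 3 and 4 were the lowest of the 10 and control pool 5 the highest. The coefficient of variation was 48.1% in NSD3 morpholino pools and 51.3% in control pools, and the log2 fold change of -0.31 had a 95% interval of -1.16 to 0.54 (limma adjusted p 0.727). LDHB made up 82.6% ± 7.72 of the summed LDHA and LDHB FPKM in NSD3 morpholino pools and 77.6% ± 8.95 in control pools (SD, n = 5 each).

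Glucose and lactate transporters did not pass, 0 of 3 tested. With 2.52% of all genes called in either direction, 0 calls among so few genes says little, here and for the steps below. SLC2A1, the glucose transporter GLUT1, stood at 69.8, 69.6, 72.5, 53.3 and 84.0 FPKM in the NSD3 morpholino pools, against 75.4, 56.4, 59.0, 132 and 170 FPKM in the control pools. Control pools 4 and 5 lay above the other 8, which overlapped. The log2 fold change was -0.37 (SE 0.278, limma adjusted p 0.532) with all pools and 0.13 (SE 0.135, limma adjusted p 0.626) without control pools 4 and 5. SLC16A3, the lactate exporter MCT4, showed the same layout, at 62.3, 60.5, 52.6, 38.8 and 66.6 FPKM with the NSD3 morpholino and 58.0, 44.7, 53.3, 105 and 126 FPKM in controls. Its log2 fold change of -0.37 (limma adjusted p 0.515) became 0.094 (limma adjusted p 0.781) without those pools. SLC16A1, which encodes the transporter MCT1, stood at 283, 302, 293, 278 and 305 FPKM with the NSD3 morpholino and at 301, 302, 314, 356 and 394 FPKM in controls. It averaged 292 ± 11.6 FPKM in NSD3 morpholino pools and 333 ± 40.7 FPKM in control pools (SD, n = 5 each), with control pools 4 and 5 again highest (limma adjusted p 0.243).

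The enzymes that phosphorylate and isomerise glucose did not pass either, 0 of 3. HK2, the hexokinase that HIF1A induces, stood at 23.1, 24.3, 32.7, 24.9 and 26.9 FPKM in the NSD3 morpholino pools and at 24.0, 27.6, 20.1, 47.5 and 46.5 FPKM in the control pools. Its log2 fold change was -0.25 with all pools and 0.14 without control pools 4 and 5, at limma adjusted p of 0.606 and 0.565. HK1, the more abundant hexokinase, averaged 62.1 ± 7.68 FPKM in NSD3 morpholino pools and 62.8 ± 14.5 FPKM in control pools (SD, n = 5 each). GPI, which converts glucose 6-phosphate to its fructose form, averaged 74.1 ± 3.26 FPKM in NSD3 morpholino pools and 64.0 ± 6.88 FPKM in control pools, a log2 fold change of 0.21 (95% interval 0.05 to 0.38, limma adjusted p 0.163).

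PFKFB enzymes make or break the sugar phosphate that activates phosphofructokinase, and TIGAR, a p53 target in mammals, breaks it down. None of the 3 tested passed. PFKFB3, which hypoxia induces, stood at 7.37, 8.54, 13.3, 5.07 and 8.01 FPKM in the NSD3 morpholino pools. In the control pools it stood at 6.54, 7.41, 5.73, 21.5 and 16.3 FPKM, with control pools 4 and 5 the highest. Its log2 fold change was -0.29 (limma adjusted p 0.715) with all pools and 0.29 (limma adjusted p 0.523) without control pools 4 and 5. PFKFB2 stood at 3.54, 3.17, 2.69, 3.55 and 3.98 FPKM with the NSD3 morpholino and at 5.03, 3.65, 4.60, 3.70 and 4.05 FPKM in controls, or -0.28 on the log2 scale (limma adjusted p 0.269). TIGAR stood at 4.83, 6.60, 4.39, 4.83 and 4.24 FPKM with the NSD3 morpholino and at 4.48, 3.36, 6.30, 3.69 and 3.02 FPKM in controls (log2 fold change 0.26, limma adjusted p 0.495). It was 0.16 without NSD3 morpholino pool 2, 0.16 without control pool 5, 0.40 without control pool 3 and 0.094 without control pools 4 and 5, and it passed in none of these.

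Lower glycolysis had 0 calls among 6 tested members. GAPDH stood at 4549, 5078, 4253, 4183 and 4738 FPKM in the NSD3 morpholino pools and at 4280, 4093, 4026, 4631 and 5782 FPKM in the control pools. The means were 4560 ± 366 FPKM with the NSD3 morpholino and 4563 ± 721 FPKM in controls (SD, n = 5 each), and the 95% interval of the log2 fold change ran from -0.21 to 0.23. ENO1 stood at 1210, 1440, 1133, 992 and 1227 FPKM in the NSD3 morpholino pools and at 1325, 1211, 1249, 1414 and 1903 FPKM in the control pools, or -0.23 on the log2 scale (limma adjusted p 0.364). Without control pool 5 ENO1 was -0.12, and without control pools 4 and 5 it was -0.08. Control pool 5 was the highest of the 10 pools for GAPDH and ENO1, and also for ALDOC, TPI1 and PGAM1, and the groups overlapped for all 5 genes.

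ALDOC, which splits the doubly phosphorylated sugar, stood at 679, 801, 699, 690 and 797 FPKM in the NSD3 morpholino pools and at 608, 632, 589, 737 and 913 FPKM in the control pools (log2 fold change 0.09, limma adjusted p 0.723). Without control pools 4 and 5 it was 0.26 (limma adjusted p 0.0647). TPI1, which interconverts the triose phosphates, stood at 507, 576, 512, 495 and 546 FPKM with the NSD3 morpholino and at 495, 500, 491, 561 and 667 FPKM in controls (limma adjusted p 0.882). PGAM1 stood at 886, 955, 807, 727 and 975 FPKM with the NSD3 morpholino and at 798, 727, 708, 908 and 1143 FPKM in controls (limma adjusted p 0.918). ENO2, the neuronal enolase, stood at 8.02, 8.91, 8.08, 6.37 and 14.8 FPKM with the NSD3 morpholino and at 5.47, 5.16, 6.43, 24.9 and 20.3 FPKM in controls. Its log2 fold change was -0.16 (limma adjusted p 0.889) with all pools and 0.60 (SE 0.212, limma adjusted p 0.147) without control pools 4 and 5.

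Of the members without a row, 3 stood as the protein symbol of a row whose Ensembl symbol names a paralog, so they are given apart and were picked after their values were seen. The PKLR row carries the protein symbol PKM, a pyruvate kinase, and averaged 1081 ± 65.3 FPKM in NSD3 morpholino pools and 1066 ± 101 FPKM in control pools (SD, n = 5 each, limma adjusted p 0.906). The PGK2 row carries the protein symbol PGK1, a phosphoglycerate kinase, and had 381 to 512 FPKM in NSD3 morpholino pools and 378 to 587 FPKM in control pools (limma adjusted p 0.949). The PDHA2 row carries the protein symbol PDHA1, a pyruvate dehydrogenase subunit, and averaged 48.3 ± 2.13 FPKM in NSD3 morpholino pools and 42.2 ± 4.10 FPKM in control pools (limma adjusted p 0.187). SLC2A3 had no such row. SLC2A14, also not a member, averaged 87.8 ± 16.6 FPKM in NSD3 morpholino pools and 108 ± 58.2 FPKM in control pools, with control pools 4 and 5 highest. Its log2 fold change was -0.17 (limma adjusted p 0.794), and 0.31 without those pools (limma adjusted p 0.221). PFKFB4L, not a member either, averaged 15.5 FPKM in NSD3 morpholino pools and 16.2 FPKM in control pools (limma adjusted p 0.71).

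Genes of pyruvate dehydrogenase and its kinases had 0 calls among 3. PDHB, the beta subunit of pyruvate dehydrogenase, stood at 135, 144, 140.0, 136 and 139.5 FPKM in the NSD3 morpholino pools and at 131, 137, 151, 121.5 and 119.8 FPKM in the control pools. It averaged 139 ± 3.66 FPKM in NSD3 morpholino pools and 132 ± 12.8 FPKM in control pools (SD, n = 5 each). The kinase genes PDK1 and PDK3, whose products switch that enzyme off, averaged 27.7 ± 3.07 and 41.0 ± 5.15 FPKM in NSD3 morpholino pools and 29.6 ± 6.40 and 44.1 ± 7.13 FPKM in control pools. Their limma adjusted p were 0.576, 0.807 and 0.696.

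HIF1A itself, the oxygen-regulated subunit of the factor, stood at 74.0, 70.8, 73.3, 72.4 and 71.2 FPKM in the NSD3 morpholino pools and at 62.3, 64.9, 74.7, 54.6 and 51.2 FPKM in the control pools. Control pool 3 was the highest of the 10 pools, and control pools 4 and 5 were the lowest. HIF1A did not pass, at 0.24 on the log2 scale (95% interval 0.05 to 0.44, limma adjusted p 0.181). Without control pool 3 it was called, at 0.32 (limma adjusted p 0.045), and without control pools 4 and 5 it was 0.11 (limma adjusted p 0.381). EGLN1, the main prolyl hydroxylase, averaged 32.2 ± 4.41 FPKM in NSD3 morpholino pools and 33.4 ± 5.90 FPKM in control pools (limma adjusted p 0.891). EGLN3, a hydroxylase that hypoxia induces, stood at 3.40, 3.37, 5.31, 3.20 and 4.37 FPKM with the NSD3 morpholino and at 3.11, 4.10, 2.25, 9.45 and 7.10 FPKM in controls (log2 fold change -0.23, limma adjusted p 0.749).

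Among the hypoxia targets other than the BNIP3 pair, VEGFA, the endothelial growth factor gene, had the fitted log2 fold change farthest from 0 of all members and did not pass. It stood at 5.10, 3.69, 3.27, 2.27 and 6.44 FPKM in the NSD3 morpholino pools, against 3.72, 2.94, 3.44, 10.8 and 15.8 FPKM in the control pools. Control pools 1 to 3 lay within the range of the NSD3 morpholino pools, and control pools 4 and 5 above it. The log2 fold change was -0.53 (SE 0.425, limma adjusted p 0.56) with all pools and 0.20 (SE 0.254, limma adjusted p 0.696) without those pools. P4HA1, a collagen prolyl hydroxylase subunit, averaged 41.5 ± 8.06 FPKM in NSD3 morpholino pools and 49.4 ± 13.5 FPKM in control pools (SD, n = 5 each, limma adjusted p 0.526).

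**Figure D3:**
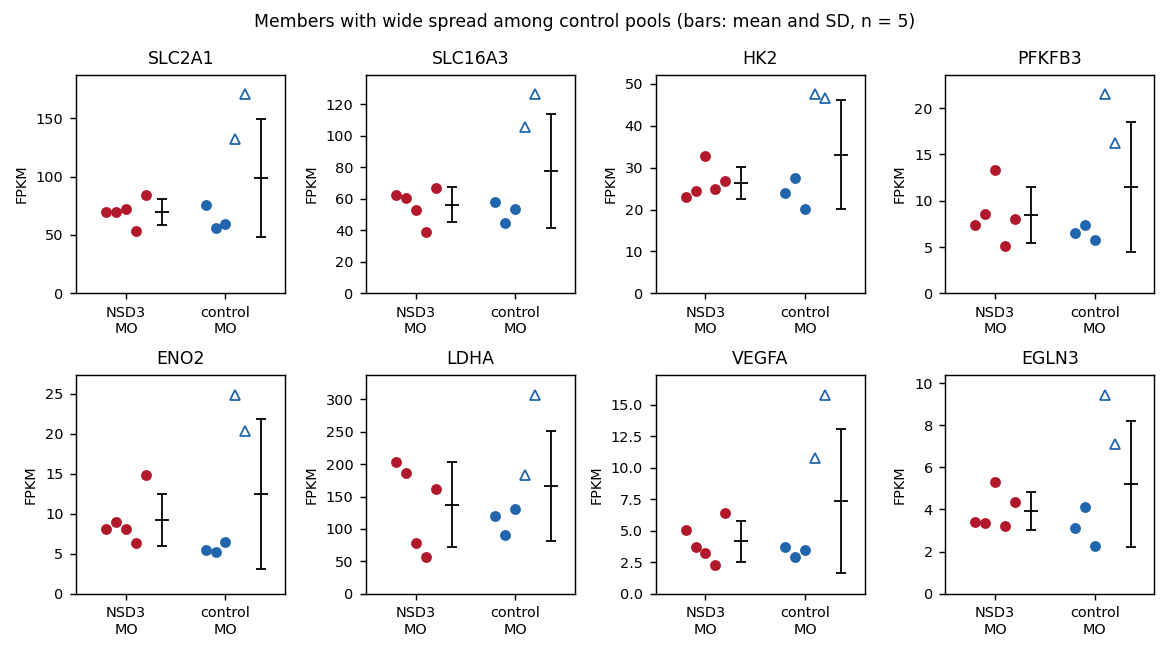
FPKM of 8 members by pool on axes from 0, NSD3 morpholino (red) left of control (blue), replicates 1 to 5 from left to right, with control pools 4 and 5 as open triangles and black bars for the mean and SD (n = 5). In SLC2A1, SLC16A3, HK2, PFKFB3, ENO2, VEGFA and EGLN3 the triangles lie above all other pools, and in LDHA the triangle of pool 4 lies within the NSD3 morpholino range.

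The spread among control pools thus differed by gene. Control pools 4 and 5 were the 2 highest of the 10 pools for 9 of 30 members, against 14.8% of all genes tested. These were SLC2A1, SLC16A1, SLC16A3, HK2, PFKFB3, ENO2, EGLN3, VEGFA and P4HA1. The same pools were the 2 lowest for 4 of 30, LDHB, PDHB, HIF1A and BNIP3, against 16.9% of all genes. The coefficient of variation was smaller in NSD3 morpholino pools than in control pools for 28 of 30 members, against 70.2% of all genes. These counts describe the pools and were not tested.

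Leaving out control pools 4 and 5 gave a higher fitted log2 fold change for 19 of 30 members and a lower one for 11. With all pools 19 of 30 members had a log2 fold change below 0, against 50.6% of all genes tested, and without those pools 9 of 30 did, against 51.4%. The median over members was -0.12 with all pools and 0.11 without them, while that of all genes was -0.003 and -0.0073. The sign turned from negative to positive for 11 of 30 members, against 12% of all genes, and from positive to negative for PDHB. Among members that kept their sign, the log2 fold change without those pools was 0.22 for HK1, 0.14 for GAPDH, 0.22 for PGAM1, 0.20 for GPI and 0.13 for LDHB. It was -0.064 for SLC16A1, -0.34 for PFKFB2, -0.23 for PDK1, -0.22 for PDK3, -0.13 for EGLN1 and -0.35 for BNIP3L. None of these 11 passed in that setting, with limma adjusted p of 0.0659 for BNIP3L and of 0.141 to 0.631 for the others. In that setting 2 members were called higher, BNIP3 and PFKL, and 1 lower, PFKP, where 1.68% of all genes were called higher and 1.2% lower, 2.87% in either direction.

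**Figure D4:**
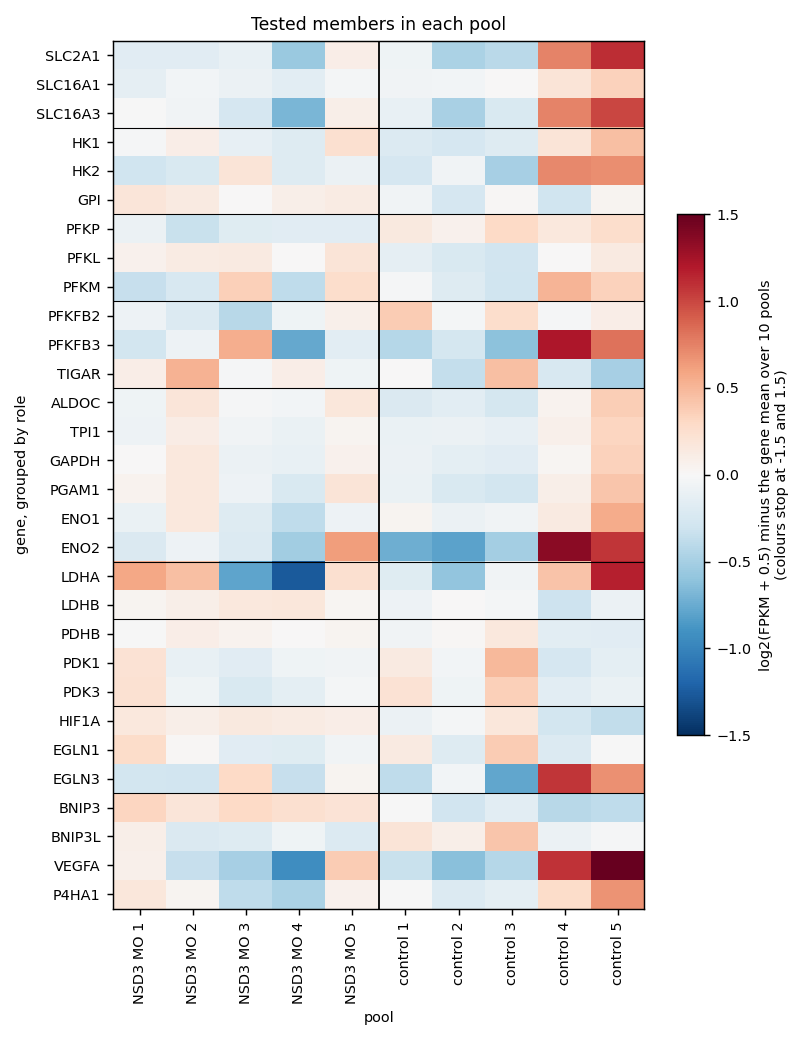
Colour gives log2(FPKM + 0.5) minus the mean of the gene over the 10 pools, for the 30 tested members in rows by role, with NSD3 morpholino pools left and control pools right of the black line. The columns of control pools 4 and 5 are red for SLC2A1, SLC16A3, HK2, PFKFB3, ENO2, EGLN3 and VEGFA and blue for HIF1A and BNIP3.

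**Figure D5:**
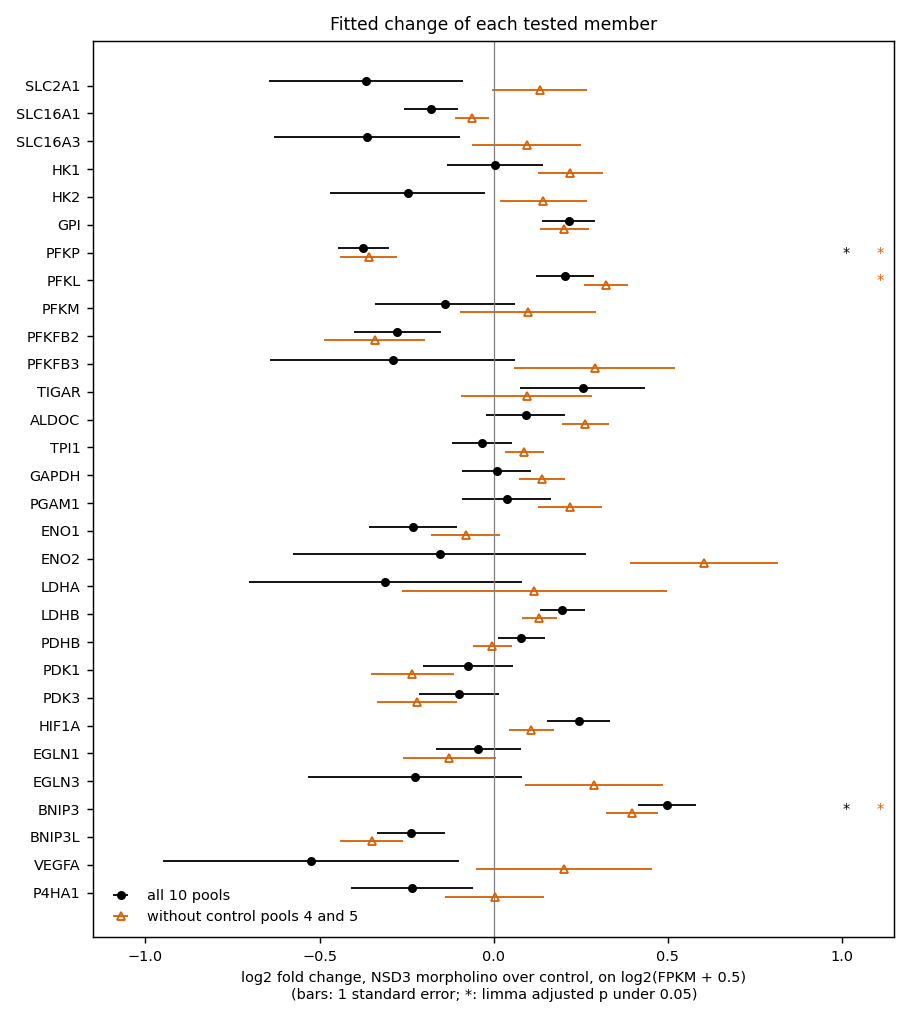
Fitted log2 fold change of each tested member, NSD3 morpholino over control, with bars of 1 standard error, for all 10 pools (black) and without control pools 4 and 5 (orange). Stars mark a limma adjusted p under 0.05, reached by BNIP3 and PFKP in each setting and by PFKL in the second.

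Other genes of the pathway were counted from a list of 80, of which 68 had a row and 53 were tested. The PGK2 row, which carries the protein symbol PGK1 of a member, was among those tested. By limma 0 of 53 were called, against 2.52% of all genes in either direction. At an unadjusted p under 0.05, 5 were higher and 5 lower, against 18.1% of all genes in either direction. The list held pyruvate dehydrogenase partners, the pentose phosphate branch, malate and aspartate shuttle enzymes, regulators of HIF1A and further hypoxia targets. Their median log2 fold change was -0.02. Without control pools 4 and 5, GOT1, the cytosolic aspartate aminotransferase, was called higher at 0.28 on the log2 scale (limma adjusted p 0.0312), against 0.22 (limma adjusted p 0.0991) with all pools.

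Markers of the tissues in the fold were summed beside these genes. The summed FPKM of 6 neural crest markers ran from 405 to 672 in NSD3 morpholino pools and from 636 to 1239 in control pools. SOX9 and TFAP2B, 2 of 6, were called lower and 0 higher, where 1.02% of all genes were called lower. FOXD3 and SNAI2 made up most of the sum and were not called (limma adjusted p 0.133 and 0.322). Control pools 4 and 5 held 688 and 1239 FPKM of that sum, and control pools 1 to 3 held 636 to 808 FPKM. FOXD3 alone stood at 731 FPKM in control pool 5. Of 5 border and dorsal neural markers 1, ZIC1, was called lower. Their sum was 345 to 470 FPKM in NSD3 morpholino pools and 402 to 664 FPKM in control pools, where pools 4 and 5 held 636 and 664 FPKM. MSX1 made up most of that sum and was not called (limma adjusted p 0.305). The 3 neural markers summed to 150 to 175 FPKM in NSD3 morpholino pools and 159 to 190 FPKM in control pools, with 1, NCAM1, called lower. The 5 markers of non-neural ectoderm summed to 332 to 379 FPKM in NSD3 morpholino pools and 278 to 346 FPKM in control pools, with 0 called. EPCAM made up most of the ectoderm sum. Most markers of tissues outside the fold were low, and NOTO of the notochord list was the highest. FOXC2, ACTC1 and LMO2 averaged 7.86, 5.98 and 5.72 FPKM in NSD3 morpholino pools and 4.47, 1.41 and 3.93 FPKM in control pools. The crest marker SOX10 averaged 8.70 FPKM in NSD3 morpholino pools and 15.7 FPKM in control pools. Under 1 FPKM refers below to the mean over all pools. The 6 mesoderm and head mesenchyme markers summed to 13.0 to 20.9 FPKM in NSD3 morpholino pools. In control pools they summed to 10.8 to 14.7 FPKM. Of these, 1 of 3 tested, FOXC2, was called higher (log2 fold change 0.76, limma adjusted p 0.0222), where 1.5% of all genes were. TBX1, TCF15 and TWIST1 were under 1 FPKM. TWIST1 averaged 1.24 FPKM in NSD3 morpholino pools and 0.759 FPKM in control pools and was not tested. The 8 blood and endothelium markers with a row summed to 6.32 to 12.6 FPKM in NSD3 morpholino pools and 7.59 to 10.1 FPKM in control pools, with 0 of 3 tested called and HBZ, HBA1, HBBA, CDH5 and TAL1 under 1 FPKM. Notochord and floor plate markers summed to 18.0 to 26.4 FPKM in NSD3 morpholino pools and 22.1 to 33.4 FPKM in control pools. Of these, 0 of 3 tested were called, and SHH and FOXA2 were under 1 FPKM. NOTO made up most of that sum, averaging 19.1 FPKM in NSD3 morpholino pools and 24.1 FPKM in control pools. Endoderm markers summed to 1.37 to 2.34 FPKM in NSD3 morpholino pools and 0.735 to 2.56 FPKM in control pools, each of the 5 under 1 FPKM. Cardiac muscle markers summed to 3.23 to 8.97 FPKM in NSD3 morpholino pools and 1.51 to 2.22 FPKM in control pools. The 1 tested, ACTC1, was called higher (log2 fold change 1.68, limma adjusted p 0.00325), and NKX2-5 and TNNT2 were under 1 FPKM. The part of these markers in the results for BNIP3, PFKP and the other members was not tested.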

How the data were processed

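FPKM values of 10 libraries, made by the authors, were the input. A second deposited table lists, for 674 genes, the adjusted p-value (up to 0.0499), the log2 fold change and a mean count that is not whole, treated here as a score. The submitters' processing notes name the build GRCg6a and the tools DESeq2 1.28.1, STAR 2.5.3a and Trimmomatic 0.32. How reads were counted, with what annotation and whether by strand is not given in the sources used here, so members that overlap other genes are uncertain. Read totals were not used here.

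Groups came from the sample titles. FPKM are not counts, so log2(FPKM + 0.5) was fitted with limma 3.58.1 (R 4.3.3, mean-variance trend, 1 group term, two-sided, Benjamini-Hochberg over the 11935 genes with a mean of at least 1 FPKM). The log2 fold changes understate changes of low genes. Folds are ratios of group means. Paralog ratios used log2 of (FPKM + 0.5) and exact permutation. Python 3.11.15, pandas 2.3.3, numpy 2.4.6 and matplotlib 3.10.9 were used. On simulated data for NSD3 morpholino against control (11935 genes, 200 changed, 5 simulations), 50.6% of genes changed by 0.5 and 93.8% of those changed by 1 on the log2 scale were recovered. Of the genes called there, 3.45% were unchanged. The simulated pools were independent with the same spread in each group. Control pools 4 and 5 differed from that, so the shares may not hold for these data.

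The members, lists and tests were chosen with earlier results of these data known. Members were given in full where called, without overlap, in the authors' deposited table, among the 10 highest levels or among the 10 largest fitted changes, and further members were described by level. Replicate numbers were checked, which did not settle whether they pair the pools, and the main fit had no replicate term.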

Additional observations from a re-analysis of the deposited data

Results flagged for a closer look

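In 62 groups of 5 pools, 2 held a pool far from the other 4, where chance alone gives about 1 in 20 groups. TIGAR stood at 6.60 FPKM in NSD3 morpholino replicate 2, above the other 4 NSD3 morpholino pools. PDK1 stood at 32.9 FPKM in NSD3 morpholino replicate 1, the highest of its group.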

How the results depend on the processing

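The call of BNIP3 held in all 20 refits run, with a limma adjusted p up to 0.0328 and, with 1 pool left out, a log2 fold change of 0.46 to 0.56. PFKP kept its direction, at -0.41 to -0.34 with 1 pool left out. Same-numbered pools had correlations of -0.128 to 0.34. For NSD3 morpholino replicate 5 the control pool of the same number correlated best, at 0.340 against 0.255 for the best other. For replicate 1 the values were nearly equal, at 0.2139 and 0.2134. For replicates 2, 3 and 4 another control pool correlated best. The check thus did not settle whether the numbers pair the pools. With a replicate block, 0 members were called lower (PFKP, limma adjusted p 0.0512), and 97 genes were called higher and 62 lower over all genes. NSD3 ran from -0.37 to -0.30 with 1 pool left out and passed in none of these refits (limma adjusted p 0.0523 to 0.142). Control replicates 4 and 5 were its highest pools, and without them NSD3 was -0.24 (limma adjusted p 0.118). NSD3 passed with a filter at 5 FPKM (-0.34, limma adjusted p 0.048) and with equal totals (-0.39, limma adjusted p 0.036). Members called higher numbered 2 without control replicates 4 and 5, and 1 to 2 with 1 pool left out. Members called lower then numbered 0 to 1. Neighbours called higher numbered 2 with array weights (GOT1 and PGAM5), 1 without control replicates 4 and 5 (GOT1) and 0 to 1 with 1 pool left out. Array weights called 344 genes higher and 207 lower. With 1 pool left out, 70 to 210 genes were higher and 33 to 151 lower, against 179 and 122, fewest in either direction when NSD3 morpholino replicate 2 was left out. Without control replicates 4 and 5, 0 paralog ratios were called, where fewer arrangements limit the p.

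Signs turned for uncalled members without control replicates 4 and 5: SLC2A1 0.13, SLC16A3 0.094, HK2 0.14, PFKM 0.099, PFKFB3 0.29, TPI1 0.088, ENO2 0.60, LDHA 0.12, EGLN3 0.29, VEGFA 0.20, P4HA1 0.0027 and PDHB -0.0040. So did the ratios SLC16A3/SLC16A1 (0.16), PFKFB3/TIGAR (0.20), PFKFB4/PFKFB3 (-0.22), PDK3/PDK1 (0.014) and EGLN3/EGLN1 (0.42). With equal totals, which moved the median of all genes to -0.046, HK1 was -0.042, GAPDH -0.037 and PGAM1 -0.0096. With array weights TPI1 was 0.042, ENO2 0.29 and EGLN3 0.014. With 1 pool left out, values ran from -0.060 to 0.12 for HK1, -0.067 to 0.043 for TPI1, -0.033 to 0.097 for GAPDH, -0.026 to 0.15 for PGAM1, -0.38 to 0.16 for ENO2, -0.15 to 0.037 for PDK1, -0.12 to 0.044 for EGLN1 and -0.45 to 0.015 for EGLN3. The ratios ran from -0.10 to 0.39 for ENO2/ENO1, -0.0099 to 0.25 for PFKFB4/PFKFB3 and -0.49 to 0.12 for EGLN3/EGLN1. The cause was not tested.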

Other observations

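Of the 53 pathway neighbours tested, control pools 4 and 5 were the 2 highest of the 10 pools for 10, against 14.8% of all genes, and the 2 lowest for 9, against 16.9%. The second set includes HIF1AN, PLOD2 and INSIG2. The following genes were picked from the list after their values were seen. DDIT4, a stress-induced inhibitor of mTORC1, had 200, 245, 337, 127 and 375 FPKM in the NSD3 morpholino pools and 195, 144, 151, 952 and 1238 FPKM in the control pools (limma adjusted p 0.694). STC2, a secreted stanniocalcin, had 18.2 to 26.7 FPKM in the NSD3 morpholino pools, against 25.1, 21.5, 24.4, 55.1 and 79.3 FPKM in the control pools (limma adjusted p 0.328). NDRG1 had 9.77 to 16.6 FPKM with the NSD3 morpholino, against 13.4, 12.1, 16.5, 35.8 and 29.9 FPKM in controls (limma adjusted p 0.217). CA9, a carbonic anhydrase that hypoxia induces in mammals, did not share this layout, at 88.7 to 111 FPKM in NSD3 morpholino pools and 89.7, 101, 80.9, 90.0 and 115 FPKM in control pools (limma adjusted p 0.652).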
